A study of Mus musculus with 12 samples.

Results

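The genes described here are 38 genes of skeletal muscle fibres, measured in mouse lung RNA on every array of a study of radiation and simvastatin. They are the contractile proteins of the sarcomere, the proteins that release and take up calcium, and the enzymes that supply a fibre with energy. Each was taken by its gene symbol in the platform annotation, and the probe set with the highest mean over 12 arrays stood for it. All 38 had a probe set, among 18193 genes with a symbol of their own. Of these 38, 33 passed the filter on low values and were tested, among 11606 genes. The genes were divided by role into 14 of fast fibres, 6 of slow fibres, 8 shared by the sarcomeres of both, 4 of excitation and kinases, and 6 of energy supply.

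A muscle fibre shortens when myosin heads of the thick filament pull on actin of the thin filament, and troponin and tropomyosin hold that pull back until calcium rises. Fast and slow fibres build the same machine from different genes, so that most of its parts exist as a fast and a slow form. The lung itself holds smooth muscle and, in mice, heart-type muscle around its large veins, while skeletal fibres lie next to it in the chest wall, the diaphragm and the oesophagus.

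The study asked whether simvastatin, which blocks a step of cholesterol synthesis, alters the lung's response to radiation. Lungs of wild-type mice gave total RNA for 12 arrays, 3 for each of 4 groups. The control mice received vehicle and were 8 to 10 weeks old. The mice of the other groups were 8 to 12 weeks old, so in every comparison with control the age range and the treatment cannot be told apart. The radiation group received 1 dose of 25 Gy and its lungs were taken 6 weeks later. The simvastatin group received 10 mg/kg into the peritoneum 3 times a week for up to 6 weeks, and the combined group received both treatments. Values are log2 intensities as deposited. Whether each array came from its own animal is not stated in the labels, and a p-value here measures only how these samples vary. In whole tissue, fewer cells of a type and less RNA per cell cannot be told apart.

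The arrays differed in ways that touch every result below. Markers of lung were high on all 12 arrays, with means of 13.44 to 14.39 for alveolar type 2 cells and of 11.75 to 13.29 for alveolar type 1 cells. The radiation-responsive gene Cdkn1a, which encodes the cell cycle inhibitor p21, went against the label of 3 arrays. It read 13.01 on the array labelled control 3 (10.25 and 10.69 on the other controls), 11.18 on the array labelled combined 3 (13.19 and 13.17 on the others) and 13.36 on the array labelled simvastatin 2 (11.09 and 11.11 on the others). Simvastatin 1 and simvastatin 3 were near-identical, with an SD of 0.118 for their log2 differences over 10342 bright probe sets, and entered the tests as 1 sample. The array labelled combined 3 differed from them by as little, with SDs of 0.111 and 0.114, whereas the next closest pair of arrays stood at 0.336. Over the 38 muscle genes alone the SD between combined 3 and simvastatin 3 was 0.36. If combined 3 holds the same RNA, that RNA stands in both groups.

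The sequences before the annotated start of 6 genes are shown first, because these genes carry the patterns below. Acta1 and Myh1 stand for the genes that were high on 7 arrays and low on 5. Myh2, Myh4 and Tnnt1 each followed another pattern, and Srpk3, in the probe set used, ran opposite to Myh2. Each run is the 100 bases before the start in RefSeq (GRCm38.p6), written 5′ to 3′ on the gene's own strand. Capitals mark a TATAAA box, an E-box (CANNTG), a MEF2 box, a CArG box or the letters CATTCC, on either strand.
Acta1, chr8:123894776-123894875, minus strand: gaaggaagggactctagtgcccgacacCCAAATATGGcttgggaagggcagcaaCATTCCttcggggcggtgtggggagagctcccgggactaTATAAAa
Myh2, chr11:67170927-67171026, plus strand: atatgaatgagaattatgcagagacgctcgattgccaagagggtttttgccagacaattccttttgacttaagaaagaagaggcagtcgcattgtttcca
Myh1, chr11:67200002-67200101, plus strand: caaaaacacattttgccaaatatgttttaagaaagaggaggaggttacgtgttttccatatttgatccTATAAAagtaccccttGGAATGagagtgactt
Myh4, chr11:67237712-67237811, plus strand: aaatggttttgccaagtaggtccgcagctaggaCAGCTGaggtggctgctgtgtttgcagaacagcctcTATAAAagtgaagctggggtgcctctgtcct
Tnnt1, chr7:4515976-4516075, minus strand: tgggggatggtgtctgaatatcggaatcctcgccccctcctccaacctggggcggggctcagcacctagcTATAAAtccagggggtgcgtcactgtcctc
Srpk3, chrX:73774305-73774404, plus strand: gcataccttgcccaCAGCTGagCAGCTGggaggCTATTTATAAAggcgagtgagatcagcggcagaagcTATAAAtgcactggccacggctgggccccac
Myh2, Myh1 and Myh4 are neighbours in a row of myosin heavy chain genes that runs Myh3, Myh2, Myh1, Myh4, Myh8 in RefSeq. Despite this, their levels differed between arrays in 3 different ways, described below. Acta1, Myh1, Myh4, Tnnt1 and Srpk3 had a TATAAA box within these bases, and the Myh2 run held none of the motifs searched. In Srpk3 the MEF2 box and a TATAAA box overlap.

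RefSeq promoter sequence was at hand for 30 of the 38 genes, not for Neb, Tnnt3, Mylk2, Myoz1, Actn3, Myot, Cox6a2 and Tnni2. Over the 250 bases before the start, 7 of the 30 held TATAAA (23.3%, against 14.3% of 27025 genes in the table). CATTCC, the core of the site bound by TEAD factors, was in 11 of 30 (36.7%, against 14.4%). A MEF2 box, named for a family of muscle transcription factors, was in the promoters of Myh1, Myh4, Pvalb, Srpk3 and Ttn, 5 of 30 (16.7%, against 3.42%). The CArG box, which serum response factor binds, was in those of Acta1, Myh4 and Myl3 (10.0%, against 1.62%). E-boxes, the sites of MyoD and its relatives, were in 27 of 30 (90.0%, against 69.3%). These counts describe letters in a window. Binding was not measured.

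Across all 38 genes the arrays fell into a high and a low set that crossed the labels. On 7 arrays, the controls, radiation 1 and 2, and combined 1 and 2, between 31 and 35 of the 38 genes lay above 4.84, the median of all values. On the other 5, radiation 3, combined 3 and all simvastatin arrays, between 15 and 17 did. For 19 of the 38 genes the widest gap between neighbouring values separated exactly these 7 arrays from these 5. That gap ran from 1.03 for Pygm to 9.77 for Tnnc2. Combined 1 was the highest array for 23 genes, and simvastatin 2 the lowest for 22.

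**Figure D1:**
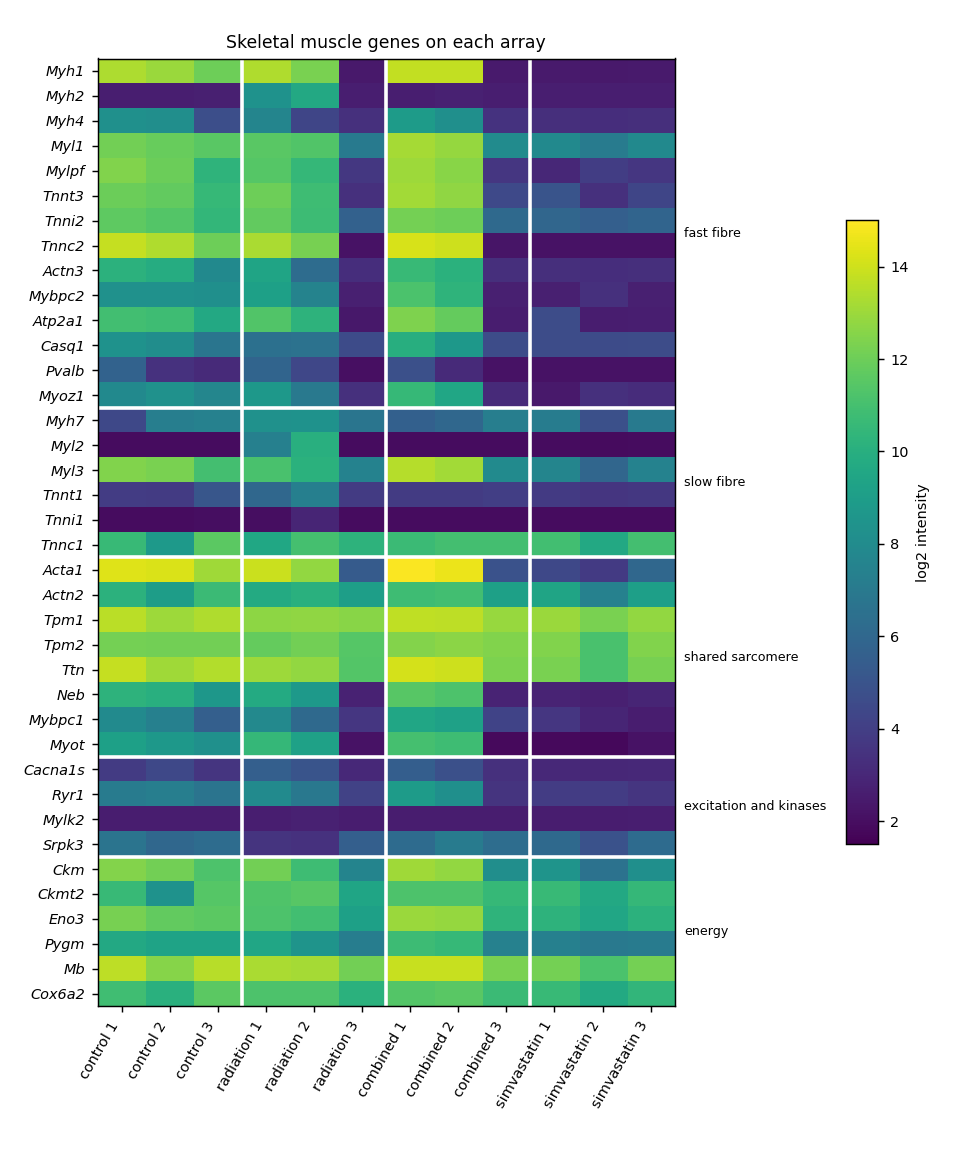
Log2 intensity of the 38 genes (rows, grouped by role) on the 12 arrays (columns, grouped by label, with white lines between groups); colours compare arrays within a row, since probe sets of different genes are not on a common scale. Most fast-fibre rows are bright on 7 arrays and dark on radiation 3, combined 3 and the 3 simvastatin arrays, while Myh2 and Myl2 are bright on radiation 1 and radiation 2 and dark on the other 10.

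Among the shared sarcomere genes, skeletal actin (Acta1), the thin filament itself, read 14.35, 14.26 and 13.06 on control 1 to 3, 13.90, 12.79 and 5.39 on radiation 1 to 3, 14.90, 14.61 and 4.90 on combined 1 to 3, and 4.43, 3.81 and 6.03 on simvastatin 1 to 3. The 5 low arrays lay at 6.03 or below and the other 7 at 12.79 or above, so each irradiated group held both kinds. Nebulin (Neb), the ruler of the thin filament, was at 8.63 or above on the 7 arrays and at 2.87 or below on the 5. Myotilin (Myot), a protein of the Z-disc, was at 8.25 or above and at 2.18 or below on the same arrays. Myosin-binding protein C of the slow type (Mybpc1), which is found in both fibre types, had its gap between 5.59 and 4.24.

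Other shared sarcomere genes stayed above the median of all values on all 12 arrays. Titin (Ttn), the spring of the sarcomere, read 13.84, 13.06 and 13.42 on control 1 to 3, 13.04, 12.83 and 11.38 on radiation 1 to 3, 14.12, 13.96 and 12.32 on combined 1 to 3, and 12.28, 11.13 and 12.21 on simvastatin 1 to 3. It was lower on the same 5 arrays than on the other 7, but its range over 12 arrays was 2.99, against 11.1 for Acta1. Alpha-actinin 2 (Actn2), a Z-disc protein of heart and skeletal muscle, was lowest on simvastatin 2 at 7.43 and between 8.99 and 10.90 elsewhere. Tropomyosins 1 and 2, which cover the binding sites on actin, are also made outside skeletal muscle. Tpm1 read 13.60, 13.05 and 13.39 on control 1 to 3, 12.70, 12.78 and 12.61 on radiation 1 to 3, 13.71, 13.66 and 12.90 on combined 1 to 3, and 12.99, 12.30 and 12.82 on simvastatin 1 to 3. Its radiation arrays spanned only 12.61 to 12.78, and its control arrays lay above them from 13.05. Tpm2 read 12.20, 12.13 and 12.13 on control 1 to 3, 11.82, 12.11 and 11.46 on radiation 1 to 3, 12.47, 12.66 and 12.45 on combined 1 to 3, and 12.42, 11.11 and 12.46 on simvastatin 1 to 3. Among the 4 probe sets of Tpm2 that passed the filter, the least alike pair had r = 0.12 over 12 arrays, and for Tpm1 the second probe set had r = -0.12 with the first. The signal assigned to either gene therefore depends on the probe set.

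The fast-fibre genes followed Acta1 closely. Troponin C2 (Tnnc2), the calcium sensor of fast fibres, read 13.84, 13.40 and 12.01 on control 1 to 3, 13.31, 12.21 and 2.17 on radiation 1 to 3, 14.19, 13.98 and 2.24 on combined 1 to 3, and 2.15, 2.16 and 2.16 on simvastatin 1 to 3. Nothing lay between 12.01 and 2.24, the widest gap of any of the 38 genes. Myosin heavy chain 1 (Myh1), the IIx myosin, read 13.31, 12.95 and 12.04 on control 1 to 3, 13.40, 12.30 and 2.44 on radiation 1 to 3, 13.78, 13.78 and 2.49 on combined 1 to 3, and 2.46, 2.41 and 2.48 on simvastatin 1 to 3. Its 7 high arrays and 5 low arrays were those of Tnnc2, and its second probe set had r = 0.999 with the first over 12 arrays, though the one used may match other transcripts of the myosin family. The fast myosin light chains Myl1 and Mylpf had gaps from 11.35 down to 8.00 and from 10.29 down to 3.93. Fast troponin T (Tnnt3) and fast troponin I (Tnni2), which anchor and inhibit the thin filament, had gaps from 10.53 to 5.004 and from 10.45 to 6.14. Alpha-actinin 3 (Actn3), fast myosin-binding protein C (Mybpc2) and calsarcin 2 (Myoz1) split between the same arrays, with gaps of 2.97, 4.14 and 3.61. The calcium pump of fast fibres (Atp2a1) read 10.89, 10.78 and 9.66 on control 1 to 3, 11.33, 10.25 and 2.38 on radiation 1 to 3, 12.41, 11.80 and 2.60 on combined 1 to 3, and 4.66, 2.59 and 2.61 on simvastatin 1 to 3. Calsequestrin 1 (Casq1), which stores calcium in the sarcoplasmic reticulum, was at 6.46 or above on the 7 arrays and between 4.60 and 4.63 on the 5. Thus 11 of 14 fast-fibre genes had this gap as their widest. The exceptions were Myh2, Myh4 and Pvalb.

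Myosin heavy chain 4 (Myh4), the IIb myosin of the fastest fibres, read 8.25, 8.19 and 4.75 on control 1 to 3, 7.66, 4.35 and 3.39 on radiation 1 to 3, 8.92, 8.20 and 3.46 on combined 1 to 3, and 3.32, 3.26 and 3.34 on simvastatin 1 to 3. Its widest gap lay between 7.66 and 4.75, which left control 3 and radiation 2 below it although both were high for Myh1. Parvalbumin (Pvalb), a calcium buffer of fast fibres, read 5.74, 3.41 and 3.11 on control 1 to 3, 5.83, 4.39 and 2.05 on radiation 1 to 3, 4.81, 3.11 and 2.17 on combined 1 to 3, and 2.17, 2.16 and 2.18 on simvastatin 1 to 3. It was above the median of all values on 2 arrays, control 1 and radiation 1. The neonatal heavy chain gene Myh8, the neighbour of Myh4 and not among the 38, read 13.2, 13.2 and 11.5 on control 1 to 3, 12.3, 9.0 and 2.6 on radiation 1 to 3, 14.3, 13.8 and 2.7 on combined 1 to 3, and 2.7, 2.5 and 2.8 on simvastatin 1 to 3. Radiation 2 stood below the other 6 high arrays for both Myh4 and Myh8. The embryonic gene Myh3 stayed between 2.9 and 3.5 on all arrays.

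Myosin heavy chain 2 (Myh2), the IIa myosin of fast oxidative fibres, was high on 2 arrays alone. It read 2.61, 2.63 and 2.69 on control 1 to 3, 8.40, 9.64 and 2.64 on radiation 1 to 3, 2.64, 2.72 and 2.66 on combined 1 to 3, and 2.64, 2.61 and 2.66 on simvastatin 1 to 3. Radiation 1 and radiation 2 stood 5.68 above the highest of the other arrays, and radiation 3 was as low as the controls. A slow-fibre gene did the same. Regulatory light chain 2 (Myl2), which also serves the ventricle of the heart, read 1.92, 1.93 and 1.96 on control 1 to 3, 7.37, 9.99 and 1.93 on radiation 1 to 3, 1.93, 1.93 and 1.95 on combined 1 to 3, and 1.95, 1.92 and 1.96 on simvastatin 1 to 3. Its gap was 5.41, below the same 2 arrays. Both genes were above the median of all values on 2 arrays and so were not among the tested genes.

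Of the other slow-fibre genes, slow troponin T (Tnnt1) read 3.91, 3.86 and 5.14 on control 1 to 3, 5.995, 7.33 and 3.85 on radiation 1 to 3, 3.85, 3.86 and 3.99 on combined 1 to 3, and 3.80, 3.58 and 3.70 on simvastatin 1 to 3. Radiation 2, radiation 1 and control 3 were its 3 highest arrays, in that order, and the other 9 lay between 3.58 and 3.99. Across bright probe sets of all genes these 3 arrays also lay close to each other, with SDs of 0.382 to 0.458 for their log2 differences, and the part of this in the Tnnt1 levels was not tested. Slow troponin I (Tnni1) read 2.90 on radiation 2 and between 1.92 and 1.996 elsewhere, below the median of all values throughout. Myosin heavy chain 7 (Myh7), the slow and ventricular heavy chain, read 4.41, 7.29 and 7.45 on control 1 to 3, 8.33, 8.39 and 6.74 on radiation 1 to 3, 5.63, 5.99 and 7.25 on combined 1 to 3, and 7.19, 4.79 and 7.07 on simvastatin 1 to 3. Radiation 1 and 2 were its highest arrays, with a gap of 0.88 to the next, and control 1 was its lowest. Light chain 3 (Myl3), listed with slow fibres, read 12.46, 12.31 and 10.95 on control 1 to 3, 11.12, 10.12 and 7.46 on radiation 1 to 3, 13.52, 13.14 and 7.94 on combined 1 to 3, and 7.64, 5.95 and 7.51 on simvastatin 1 to 3. It followed the fast-fibre genes, with its gap between 10.12 and 7.94. Its probe set may match other transcripts, and the 3 Myl3 probe sets that passed the filter had r of 0.992 or above with each other over 12 arrays. Troponin C1 (Tnnc1), the calcium sensor of slow fibres and of the heart, read 10.60, 8.74 and 11.60 on control 1 to 3, 9.52, 10.99 and 10.24 on radiation 1 to 3, 10.71, 10.99 and 10.94 on combined 1 to 3, and 10.93, 9.64 and 10.98 on simvastatin 1 to 3. It did not separate the 7 arrays from the 5, and its widest gap left control 2 alone at the bottom.

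**Figure D2:**
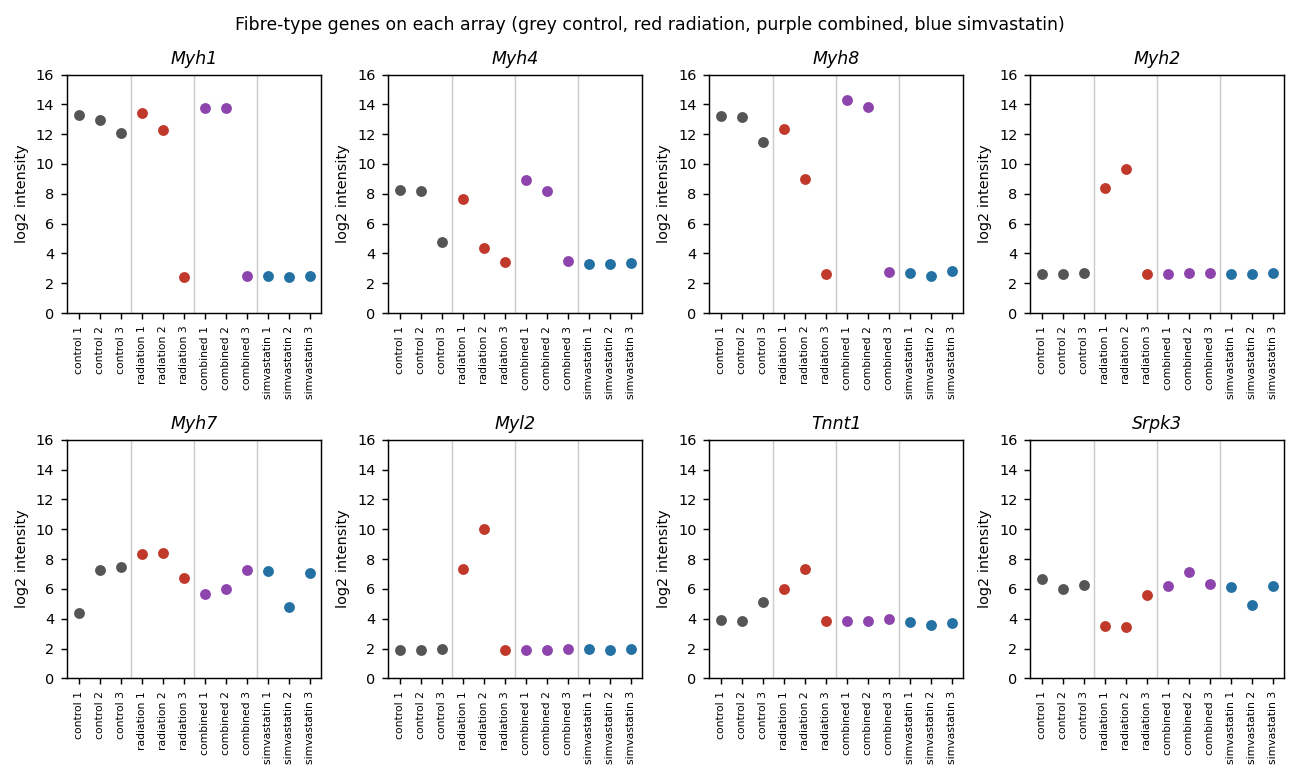
Log2 intensity (vertical axis, 0 to 16) of 8 genes on the 12 arrays (horizontal axis), 1 point per array, coloured by labelled group. Myh1, Myh4 and Myh8 are near their floor on radiation 3, combined 3 and the simvastatin arrays, Myh2 and Myl2 are high on radiation 1 and radiation 2 alone, and Srpk3 is lowest on those 2 arrays.

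To set fast against slow without comparing probe sets, each gene was taken as its deviation from its own mean over 12 arrays, and the deviations were averaged over the 14 fast and the 6 slow genes. The fast mean was 2.70, 2.36 and 1.27 on control 1 to 3, 2.89, 1.71 and -3.66 on radiation 1 to 3, 3.62, 3.03 and -3.45 on combined 1 to 3, and -3.41, -3.58 and -3.50 on simvastatin 1 to 3. The slow mean was -0.24, -0.11 and 0.40 on control 1 to 3, 1.27, 2.17 and -0.76 on radiation 1 to 3, 0.14, 0.19 and -0.45 on combined 1 to 3, and -0.54, -1.48 and -0.59 on simvastatin 1 to 3. Radiation 2 was the only one of the 7 high arrays on which the slow mean exceeded the fast mean. Fast minus slow was -0.46 there, against 1.63 on radiation 1, 0.87 on control 3 and 2.47 to 3.48 on control 1, control 2, combined 1 and combined 2. On the 5 low arrays it lay between -3.003 and -2.10. A gene with a wide range deviates further, and over 12 arrays Tnnc2 spanned 12.04, Tnnc1 2.85 and Tnni1 0.97. With the fast genes at their lowest, the negative sign there follows from the measure and does not show more slow fibres. The fast minus slow values were not tested, and their sign on radiation 2 depends on the genes counted. With the mean of all probe sets that passed the filter, which leaves 12 fast and 4 slow genes and drops Myh2, Myl2, Pvalb and Tnni1, it was 0.20 there.

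**Figure D3:**
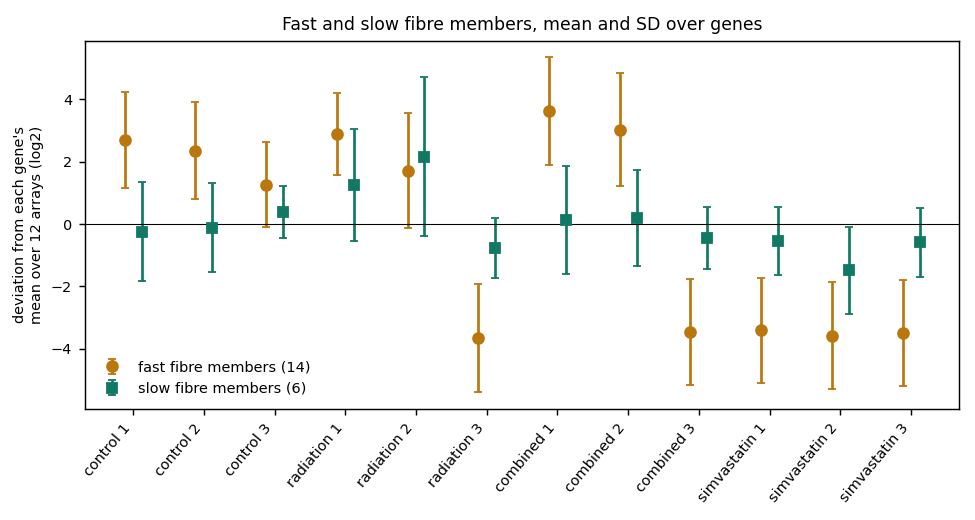
Mean deviation (log2) of the 14 fast-fibre genes (circles) and the 6 slow-fibre genes (squares) from each gene's mean over 12 arrays, on each array; bars are the SD over genes, not over samples. The fast mean exceeds the slow mean on the controls, radiation 1, combined 1 and combined 2. It lies below the slow mean on radiation 2 (fast minus slow is 0.20 there with the mean of the probe sets that passed the filter) and on the 5 low arrays. On those 5 the sign follows from the wide ranges of most fast genes and does not show more slow fibres.

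Among the genes of excitation and kinases, the ryanodine receptor (Ryr1), which releases calcium from the sarcoplasmic reticulum, read 7.10, 7.29 and 6.70 on control 1 to 3, 7.94, 6.90 and 4.14 on radiation 1 to 3, 8.93, 8.25 and 3.54 on combined 1 to 3, and 3.92, 3.89 and 3.58 on simvastatin 1 to 3. It separated the 7 arrays from the 5, with nothing between 6.70 and 4.14. Its voltage sensor (Cacna1s) read 3.87, 4.42 and 3.60 on control 1 to 3, 5.58, 5.02 and 3.06 on radiation 1 to 3, 5.53, 4.81 and 3.38 on combined 1 to 3, and 3.03, 2.997 and 3.08 on simvastatin 1 to 3. Cacna1s lay above the median of all values on radiation 1, radiation 2 and combined 1 and just below it on combined 2. The myosin light chain kinase of skeletal muscle (Mylk2) stayed between 2.56 and 2.71 on all arrays. Srpk3, a kinase of splicing factors that is expressed in muscle, read 6.69, 6.004 and 6.28 on control 1 to 3, 3.53, 3.43 and 5.57 on radiation 1 to 3, 6.20, 7.14 and 6.34 on combined 1 to 3, and 6.13, 4.90 and 6.20 on simvastatin 1 to 3. Radiation 1 and radiation 2, where Myh2 and Myl2 were high, were its lowest arrays, 1.38 below the next. This probe set may match other transcripts, and none of the other Srpk3 probe sets passed the filter. The second read 4.47, 4.55 and 4.22 on control 1 to 3 and 4.23, 4.25 and 4.14 on radiation 1 to 3. No other Srpk3 probe set was lowest on radiation 1 and radiation 2, so that drop rests on 1 probe set.

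Of the energy genes, muscle creatine kinase (Ckm), which regenerates ATP at the sarcomere, read 12.50, 12.13 and 11.22 on control 1 to 3, 12.13, 10.82 and 7.57 on radiation 1 to 3, 13.05, 12.80 and 8.18 on combined 1 to 3, and 8.51, 6.56 and 8.24 on simvastatin 1 to 3. Its gap lay between 10.82 and 8.51, and the same 5 arrays were below it. Muscle glycogen phosphorylase (Pygm) split the same way, between 8.48 and 7.44. Muscle enolase (Eno3) was lowest on radiation 3 and simvastatin 2, at 9.17 and 9.48, and at 10.18 or above elsewhere. Myoglobin (Mb), the oxygen store of red fibres and of the heart, lay between 12.57 and 13.89 on the 7 arrays and between 11.18 and 12.31 on the 5. The mitochondrial creatine kinase (Ckmt2) read 10.59, 8.36 and 11.44 on control 1 to 3, 11.28, 11.49 and 9.45 on radiation 1 to 3, 11.21, 11.21 and 10.56 on combined 1 to 3, and 10.60, 9.66 and 10.51 on simvastatin 1 to 3. Like Tnnc1 it was lowest on control 2. The cytochrome oxidase subunit of heart and muscle (Cox6a2) spanned 9.68 to 11.59, with simvastatin 2 lowest and control 3 highest.

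Markers of other tissues also differed between arrays, and their values stand beside those of the muscle genes. The means of the heart, smooth muscle, brown fat and adipose markers did not separate the high from the low muscle arrays. All 12 heart muscle markers were measured, and 11 or 12 of them were above the median of all values on every array, so markers of heart-type muscle were present on all 12. Their mean was 9.33 on control 2 and 10.32 on simvastatin 2, and the other 10 arrays lay between 11.25 and 12.65. The atrial hormone gene Nppa read 6.3 on control 2, 8.8 on simvastatin 2 and 11.9 to 13.9 elsewhere. Tnnc1 was lowest on control 2 and highest on control 3, as was the heart marker mean. All 9 smooth muscle markers were above the median of all values on every array, with means of 9.91 to 11.36. The part of heart muscle in the levels of Tnnc1, Ckmt2, Actn2, Mb and Cox6a2 was not tested.

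Squamous epithelium, the lining of the oesophagus among other organs, had 9 of 10 markers measured. Their mean was 10.16, 9.44 and 4.72 on control 1 to 3, 7.62, 3.79 and 3.09 on radiation 1 to 3, 8.64, 10.38 and 3.16 on combined 1 to 3, and 3.14, 2.96 and 3.17 on simvastatin 1 to 3. The 5 arrays above the gap of Myh4 were the 5 with the highest squamous mean. On the 5 arrays low for Acta1, 1 of the 9 markers was above the median of all values, and keratin 4 (Krt4), a defining one, read 2.7 to 2.8. Radiation 2 differed from the other 6 high arrays in this too, with Krt4 at 3.1 against 8.2 to 15.5, while its Acta1 was 12.79. Brown fat markers averaged 8.79 to 10.14 on control 1, control 3, combined 1 and combined 2, 7.48 on radiation 2, and between 4.93 and 5.83 on the remaining 7. Adipose tissue had 8 of 10 markers measured, with means of 6.48 to 10.73 on the controls, 8.75 to 9.01 on the radiation arrays, 9.52 to 10.91 on the combined arrays and 8.13 to 9.45 on the simvastatin arrays. On control 2, the lowest of the 12, the fat hormone gene Adipoq read 7.2, against 10.2 to 13.8 elsewhere. The part of these tissues in the muscle signal was not tested.

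**Figure D4:**
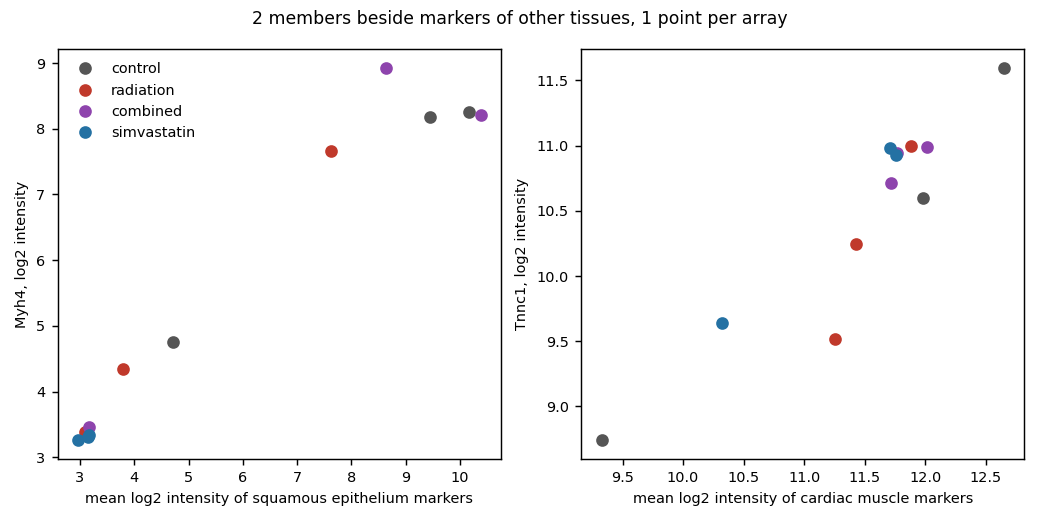
Left, Myh4 (vertical axis, log2 intensity) against the mean log2 intensity of 9 squamous epithelium markers (horizontal axis); right, Tnnc1 against the mean of 12 heart muscle markers; each point is 1 of 12 arrays, coloured by labelled group. The 5 arrays with the highest Myh4 are those with the highest squamous mean, and control 2 is lowest for both Tnnc1 and the heart muscle mean.

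The genes outside the 38 were also ranked by likeness to the mean of the 33 tested, over 11 samples and all tested genes. Most like it were Klhl41 (r = 0.993), Lmod3 and Asb5 (both 0.991), Myh8 (0.987), Ctxn3 (0.978), Apobec2 (0.969), Tmem38a (0.967), Nrap (0.958), Jph1 (0.956) and Neu2 (0.952). These correlations are descriptions over samples that fall into separate high and low clusters, which they share. Of the 10, 6 belong to a list of 58 other muscle genes, of which 54 were measured and 38 tested. That list shares Cox7a1 and Cox8b with the brown fat markers, Sln with the heart markers and Des with the smooth muscle markers. Klhl41, a regulator of the sarcomere, was at 6.91 or above on the 7 arrays and at 4.43 or below on the 5. Myod1, Myog and Pax7, transcription factors of muscle precursors, were between 1.8 and 2.7 on all 12 arrays. Myf6, a muscle transcription factor of the same list, read 3.9, 2.9 and 2.4 on control 1 to 3 and 4.7, 2.5 and 2.3 on radiation 1 to 3. It read 5.2, 4.7 and 2.3 on combined 1 to 3 and 2.3, 2.3 and 2.4 on simvastatin 1 to 3.

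Simvastatin minus control asked what the drug alone changed, and it held the largest differences between a pair of groups. All 33 tested genes were lower in the simvastatin samples, with a median log2 difference of -3.77, against -0.0023 over all 11606 genes (31 of the 33 were lower after quantile normalization). None passed limma's test after adjustment (0% of genes called). At an unadjusted p under 0.05 there were 22 of the 33 and 214 of 11606. The samples of the 2 groups did not overlap for 26 of the 33, against 7.96% of all genes in that direction, and for 21 of the 26 at least 1 log2 unit separated them. The exceptions were Actn2, Tpm2, Myh7, Tnnc1, Srpk3, Ckmt2 and Cox6a2, which overlapped. None was higher without overlap, against 3.36% of all genes.

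Of the fast-fibre genes, 12 of 12 tested were lower and did not overlap, with a median of -5.73. The 4 slow-fibre genes tested had a median of -0.53, the 8 shared sarcomere genes -2.87, the 3 of excitation and kinases -0.94 and the 6 energy genes -1.80. The slow median covers unlike genes, with Myl3 at -5.14, Tnnt1 at -0.64, Myh7 at -0.42 and Tnnc1 at -0.01. Myh7 and Tnnc1 also serve the heart, and Tnnt1 lay between 3.58 and 3.91 on all of these arrays but control 3. Here and below, the fast and slow medians therefore do not compare fibre types alone. The genes with the lowest p were Myl3 (-5.14 ± 1.60, SE), Acta1 (-9.37 ± 3.09), Ckm (-4.48 ± 1.58), Tnnc2 (-10.92 ± 3.86) and Myh1 (-10.33 ± 3.72), each with a limma adjusted p of 0.990. Their wide errors come with a spread shared by all groups, in which radiation 3 and combined 3 stood far from the other samples of their label. Of the other muscle genes, 34 of 38 tested were lower, with a median of -1.44, and 0 were called. Squamous markers were lower as well, 8 of 8 tested with a median of -4.16 and 7 without overlap, as were brown fat markers, 6 of 6 with a median of -2.56, all with overlap. Heart markers had a median of -0.19. The part of these tissues in the muscle differences was not tested. The simvastatin group rests on 2 samples, of which simvastatin 1 and 3 together were near-identical to combined 3 and simvastatin 2 carries Cdkn1a at the irradiated level. Without control 3, combined 3 and simvastatin 2 the median was -3.94, with 26 genes lower and not overlapping (26.2% of all genes) and 2 higher (38.3%).

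**Figure D5:**
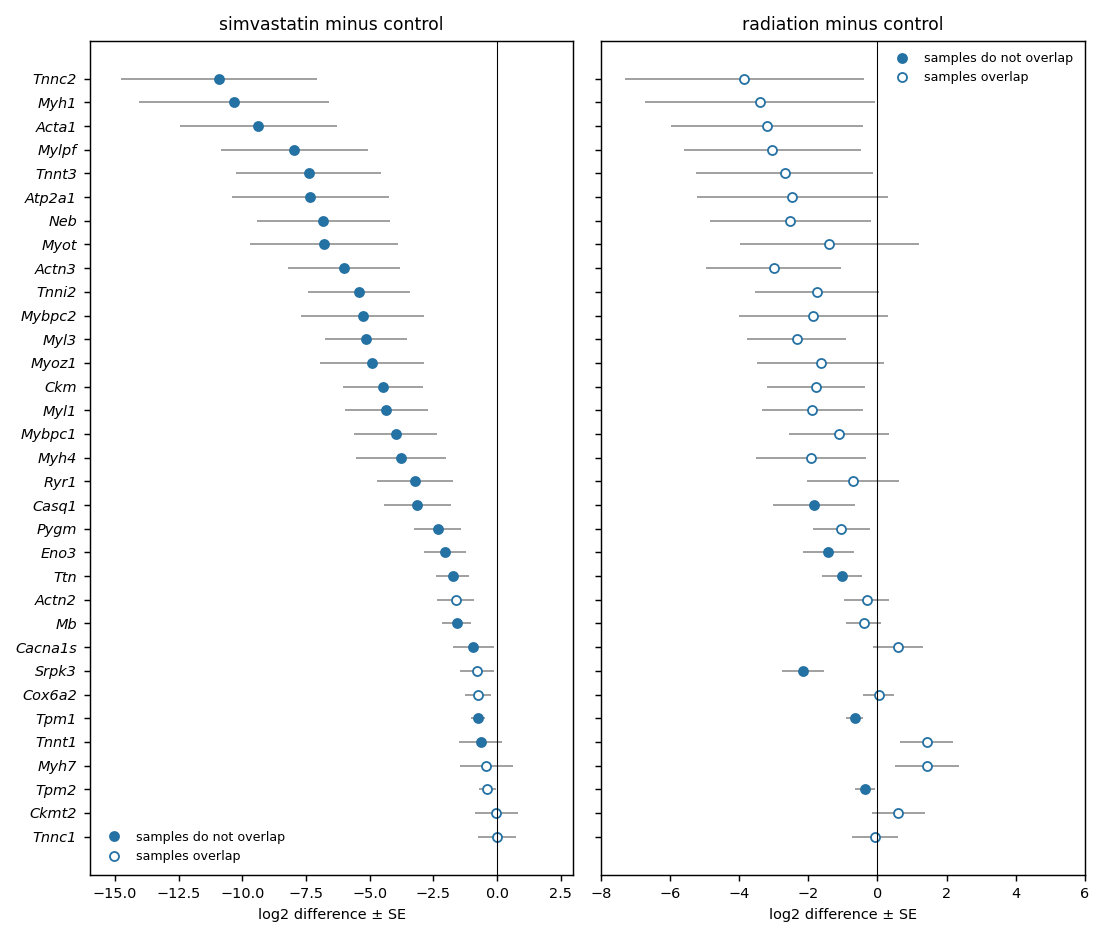
Log2 difference ± SE from limma (horizontal axes, on separate scales) of the 33 tested genes, ordered by simvastatin minus control (left) and shown in the same order for radiation minus control (right); filled points are genes whose samples do not overlap between the groups. On the left the 33 differences are below 0 on the deposited scale (31 after quantile normalization) and 26 points are filled; on the right 28 are below 0 and 6 points are filled.

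Radiation minus control asked what 25 Gy changed by 6 weeks. Of the 33 tested genes 28 were lower and 5 higher, with a median of -1.65, against 0.08 over all genes. No gene of the 11606 passed limma's test (0%), and the lowest adjusted p was 0.751. Before adjustment 2 of the 33 and 600 of all genes were under 0.05. Samples did not overlap for 6 genes, all lower (Casq1, Eno3, Srpk3, Tpm1, Tpm2 and Ttn), against 2.03% of all genes, and for 0 in the higher direction, against 4.86%. In each of the 6 the groups lay less than 0.5 apart. The count was 15 without control 3 (9.13% of all genes) and also 15 without radiation 1 (3.7%). Without radiation 3 it was 6 lower and 4 higher, against 7.17% and 15.2% of all genes.

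The lowest p among the 33 was that of Srpk3, at -2.15 ± 0.60 (SE), followed by Tpm1 at -0.65 ± 0.25, Eno3 at -1.42 ± 0.74, Tnnt1 at 1.42 ± 0.76 and Ttn at -1.02 ± 0.57, all with a limma adjusted p of 0.751. Fast-fibre genes had a median of -2.20, with 12 of 12 tested below 0, and slow-fibre genes one of 0.68, with 2 of 4 above 0. These counts leave out the genes that failed the filter, none of which was below 0. In a fit over all 18193 genes without the filter, Myh2 stood 4.25 ± 1.43 and Myl2 4.49 ± 1.57 above control, both with a limma adjusted p of 0.441. Pvalb (0.004), Tnni1 (0.31) and Mylk2 (0.06) lay closer to control in that fit. Without radiation 3 the fast-fibre median was -0.24, with 8 of 12 below 0, and the lowest difference was -1.48. The median of the 33 was then -0.15, while with limma's array weights it was -0.52. Those weights called Srpk3, Tnnt1 and Ckmt2 among the 33 and 1203 of 11606 genes in all, a similar share. Radiation 1 and radiation 2 differed from each other by an SD of 0.382 over bright probe sets and from radiation 3 by 0.615 and 0.679. Of the other muscle genes 29 of 38 were below 0, with a median of -0.45. Markers of other tissues were lower beside them. Of the squamous markers 8 of 8 tested were below 0, with a median of -2.79, and of the brown fat markers 6 of 6, with a median of -1.50. None of these markers was called or without overlap, and their part in the muscle differences was not tested.

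Adding the drug to radiation was the question of combined minus radiation. Of the 33 genes 31 were higher, with a median of 0.95, against -0.09 over all genes, and the exceptions were Tnnt1 and Myh7. limma called 0% of genes, with a lowest adjusted p of 0.835. Before adjustment 4 of the 33 and 518 genes in all were under 0.05. Samples did not overlap for Srpk3, Tpm1 and Tpm2, all higher, against 3.7% of all genes, and for 0 in the lower direction, against 13.5%. Srpk3 was 2.39 ± 0.60 (SE) higher, Tpm1 0.73 ± 0.25, Tpm2 0.72 ± 0.30 and Eno3 1.61 ± 0.74, whereas Tnnt1 was at -1.82 ± 0.76, each with a limma adjusted p of 0.835. Myh2 and Myl2, outside the tested genes, were at -4.22 ± 1.43 and -4.49 ± 1.57 in the unfiltered fit, with an adjusted p of 0.509 by limma. Pvalb (-0.72), Tnni1 (-0.33) and Mylk2 (-0.05), which also failed the filter, were below 0 in that fit too. Of the other muscle genes 33 of 38 were above 0, with a median of 0.67. Markers of several other tissues were higher too, with 0 called. Squamous markers were above 0 in 8 of 8 tested, with a median of 2.50, and brown fat markers in 6 of 6, with a median of 1.97, all with overlap. Adipose markers were above 0 in 7 of 7, with a median of 1.74, and 5 did not overlap. Smooth muscle markers were above 0 in 9 of 9, with a median of 0.69, and 4 did not overlap. The part of these tissues in the muscle differences was not tested.

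The size and sign of this comparison rest on 2 arrays of low muscle signal, 1 on each side. Its median was 2.76 without combined 3 and -0.12 without radiation 3. It was 0.23 without combined 1, 0.33 without combined 2 and 2.15 without radiation 1. Without combined 3 the samples of 28 of the 33 genes did not overlap in the higher direction, against 11.1% of all genes. Without radiation 3, 3 genes were higher without overlap and 3 lower, against 13.1% and 30.7% of all genes. With array weights limma called Tpm1, Myh7, Tnnt1 and Srpk3 among the 33 and 1173 of 11606 genes in all, a similar share.

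Combined minus simvastatin asked what radiation changed under the drug. All 33 genes were higher, with a median of 3.57, against -0.0046 over all genes. limma called 0% of genes and every gene had an adjusted p of 1, with an unadjusted p under 0.05 for 14 of the 33 and 153 in all. Samples did not overlap for 18 of the 33, all higher, against 7.75% of all genes, and for 0 lower, against 6.76%. For 17 of the 18 the groups lay less than 0.5 apart, with the array labelled combined 3 near the simvastatin level. Mybpc1, with 1.14 between the groups, was the other. The lowest p-values were those of Tpm1 (0.82 ± 0.27, SE), Myl3 (4.77 ± 1.60), Mb (1.67 ± 0.57), Mybpc1 (4.66 ± 1.62) and Ttn (1.78 ± 0.64). Fast-fibre genes had a median of 4.87 and slow-fibre genes of 0.45. Beside them the squamous (8 of 8, median 4.30), brown fat (6 of 6, 2.80), adipose (7 of 7, 1.99) and heart markers (12 of 12, 0.69) were above 0, with 0 called, and their part in the muscle differences was not tested. Without combined 3 the median was 5.27 and 31 genes did not overlap, against 19.5% of all genes.

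The interaction asked whether the effect of radiation differed with and without simvastatin. It was positive for 31 of the 33 genes, with a median of 5.495, against -0.09 over all genes. Tpm1 had the lowest p at 1.47 ± 0.37 (SE), before Srpk3 (3.17 ± 0.90), Myl3 (7.11 ± 2.15), Eno3 (3.64 ± 1.10) and Ttn (2.80 ± 0.85), each with a limma adjusted p of 0.882. limma called 0% of genes, with an unadjusted p under 0.05 for 22 of the 33 and 377 in all. The comparisons share their samples, so these counts are not independent of those above. They also leave out the genes that failed the filter. In the unfiltered fit Myh2 (-4.21), Myl2 (-4.49), Tnni1 (-0.31) and Mylk2 (-0.07) were negative, and Pvalb was at 1.19. Among the role groups the fast-fibre genes had the widest median, 7.30, and the slow-fibre genes stood at -0.24, with Tnnt1 and Myh7 below 0. Squamous markers were above 0 in 8 of 8 tested, with a median of 6.84, above that of the 33. Brown fat (6 of 6, median 4.56), adipose (7 of 7, 1.38) and heart markers (11 of 12, 0.53) were mostly or all above 0. Markers of alveolar type 2 and type 1 cells had medians of -0.45 and -0.27. None of these markers was called, and their part in the muscle terms was not tested.

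After each array was centred on its own median, all genes had a median of 0.36 in radiation minus control and of -0.45 in combined minus radiation. The 33 muscle genes then had medians of -1.37 and 0.59, which lay -1.73 and 1.05 from those of all genes. With that scaling 27 and 5 of the 33 were below 0 in these comparisons, against 28 and 2 on the deposited scale and 28 and 3 after quantile normalization.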

How the data were processed

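Total RNA of mouse lung, extracted with Trizol, was labelled as biotin cRNA and hybridised to Affymetrix whole-genome mouse arrays, per the labels' protocols. The deposited values are log2 intensities made by the authors, for which the submitters' processing notes name MAS5 and GCRMA. No version of either is named in the labels. Of 45101 probe sets, 64 controls were left out, 34945 had 1 gene symbol in the platform annotation and 932 several, and 34741 matched RefSeq by Entrez identifier. A probe set was kept if above 4.84, the median of all values, on at least 3 of 12 arrays, and each gene was represented by its brightest kept probe set. The means of 4 groups were fitted to 11 samples, with 7 residual degrees of freedom, by limma 3.58.1 under R 4.3.3 (lmFit, eBayes with a trend). P-values are two-sided and adjusted by Benjamini and Hochberg over 11606 genes, with a threshold of 0.05. The fit was also run on simulated data to check the code, which does not show that an absence of calls means no change. The number of arrays limits the precision.

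The genes, role groups and marker lists were chosen with earlier results of these data known, so no list or score was tested. Named outside the 38 are the 10 genes most like the mean of the 33 tested, and markers beside a result. Per comparison, the 5 of the 38 with the lowest p are named. Groups were taken from titles and treatment labels. The description field, which calls every array control tissue, was not used. Alternatives covered the counting of near-identical arrays, scaling, filter, floor, probe set, array weights, variance trend, replicate block, each array left out in turn, and the 3 arrays of doubted label left out.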

Additional observations from a re-analysis of the deposited data

Results flagged for a closer look

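For 9 of the 33 genes tested, every irradiated sample moved one way from the unirradiated mean without simvastatin and the opposite way with it. The share of all tested genes that did so was not computed. Many of the muscle genes also share one pattern over the arrays, so the count cannot be judged as more or less than usual. The interaction term tests that difference, and none passed after limma's adjustment (adjusted p = 0.882 for each). The terms were 1.47 for Tpm1, 1.10 for Tpm2, 2.80 for Ttn, 5.73 for Myl1, 9.17 for Mylpf, 4.998 for Casq1, 7.11 for Myl3, 3.17 for Srpk3 and 3.64 for Eno3, all on the log2 scale. Tpm1 moved from -0.65 without simvastatin to 0.82 with it, and Srpk3 from -2.15 to 1.02. For Tpm1 and Srpk3 the samples also moved in opposite ways when simvastatin was compared with and without radiation. The differences were -0.74 and 0.73 for Tpm1 and -0.79 and 2.39 for Srpk3. The Srpk3 result rests on 1 probe set, since none of its others passed the filter. The Tpm1 result holds for the probe set used, with which the second had r = -0.12 over 12 arrays. That second probe set read 11.60, 12.55 and 12.06 on control 1 to 3 and 12.57, 12.18 and 12.47 on simvastatin 1 to 3. The array labelled combined 3, which was near-identical to simvastatin 1 and simvastatin 3, stands in each of the interaction terms above.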

How the results depend on the processing

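Over the alternatives run, no gene named in a comparison for its low p changed sign. The median of the 33 in combined minus radiation did so without radiation 3, at -0.12. Fast minus slow on radiation 2 did so with the mean of the kept probe sets, at 0.20, and with the second probe set. Array weights called 1203 of 11606 genes in radiation minus control (3 of the 33) and 1173 of 11606 in combined minus radiation (4 of the 33). The shares among the 33 were close to those over all genes. Leaving out the 3 arrays of doubted label called 9 genes in radiation minus control, and leaving out each array in turn called 0 to 1 there and in the interaction, the 1 without control 3, and 0 of the 33 in any comparison. The count of genes lower and not overlapping in radiation minus control was 2 with centred arrays (0.336% of all genes), 15 without the doubted arrays (9.13%), and 6 to 15 with single arrays left out (2.03% to 9.13%). In combined minus radiation the count of higher genes was 1 (0.732%), 28 (11.1%) and 3 to 28 (3.7% to 13.1%) under the same settings. In combined minus simvastatin it was 31 without the doubted arrays (35.3%, with 44.8% of all genes lower) and 18 to 31 with single arrays left out (7.44% to 20.8%). With the second probe set of each gene, which leaves 2 fast genes and, for slow, Myl3 alone, fast minus slow moved to 2.07 and 2.36 (control 1 and 3), to 3.47, 3.44 and -3.65 (radiation 1 to 3), to 1.88 (combined 1) and to -3.35 and -3.56 (simvastatin 2 and 3). In none of the 4 comparisons between a pair of groups did every same-numbered pair of arrays correlate above 0.1 in its deviations, so the numbers were not taken as pairing; they ranged from -0.26 to 0.39 there. Control and combined, which meet only in the interaction, had 0.29 to 0.41 for the same number and -0.52 to 0.30 for other numbers. With the replicate block on 12 arrays limma called 0 genes, and the medians of the 33 were -1.65, 0.95, -3.75, 3.56 and 5.35. Where an alternative changed a count, the cause was not tested. The design has 3 arrays a group, 2 samples for simvastatin, and array labels in doubt in 3 groups.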
